A study of Homo sapiens with 24 samples.

Results

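The zinc finger genes of human chromosome 19 were followed through 3 lists of SWI/SNF peaks from RWPE1, a benign human prostate epithelial cell line. Members were the peaks on chromosome 19 whose nearest transcription start site carried a symbol made of ZNF, a number and at most 1 closing letter. The rule gave 391 of 80150 peaks, of which 206 of 51504 were in the BRG1 list, 146 of 22157 in the BRM list and 39 of 6489 in the SNF5 list. RefSeq placed 246 protein-coding genes and 17 pseudogenes with such symbols on the chromosome, and the genes without a peak are described as well.

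The cells carried a lentiviral construct for SCHLAP1, a long noncoding RNA first described in prostate cancer, and had been kept under 2.5 ug/mL blasticidin selection for a week or longer. Each of the 3 subunits had 2 chromatin immunoprecipitation samples in the SCHLAP1 line, and the peaks of each subunit came as 1 list. The LACZ control line, the histone mark samples and the input samples of the study have no peak list analysed here, so nothing below compares SCHLAP1 with LACZ cells. Chromatin was fixed in 0.3% formaldehyde for 30 minutes and cut with micrococcal nuclease before precipitation. The labels do not say whether the line was a single clone.

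SWI/SNF complexes use the energy of ATP to move or evict nucleosomes. A complex holds either BRG1 or BRM as its motor, while SNF5 is a core subunit of many of these complexes, not all. Many zinc finger genes of chromosome 19 arose by repeated local duplication and stand side by side in clusters. Many of their proteins pair an array of C2H2 fingers, which read DNA, with a KRAB domain, which recruits the corepressor TRIM28 and through it SETDB1, HP1 proteins and H3K9 methylation, often over transposable elements.

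The promoters below are shown as examples of members with peaks of all 3 subunits and of a member without any peak. ZNF653, ZNF837 and ZNF181 had peaks of all 3 subunits and were 3 of the 5 members with the widest SNF5 peaks, and ZNF208 lay in the longest run of genes without any peak. Each sequence is RefSeq's on GRCh38.p14, from 250 bases before to 50 after the annotated start, on the strand of the gene. Capitals mark CCGGAA or its reverse complement TTCCGG, the core that ETS family transcription factors read. The windows were chr19:11505790-11506089 on the minus strand for ZNF653, chr19:58380981-58381280 on the minus strand for ZNF837, chr19:34733993-34734292 on the plus strand for ZNF181 and chr19:22010894-22011193 on the minus strand for ZNF208.
ZNF653: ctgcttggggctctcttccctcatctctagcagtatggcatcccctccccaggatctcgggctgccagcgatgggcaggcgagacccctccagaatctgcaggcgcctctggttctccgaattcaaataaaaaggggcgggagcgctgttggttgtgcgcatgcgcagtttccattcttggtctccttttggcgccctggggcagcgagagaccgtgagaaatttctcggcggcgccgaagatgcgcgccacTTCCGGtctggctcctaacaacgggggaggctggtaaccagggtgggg
ZNF837: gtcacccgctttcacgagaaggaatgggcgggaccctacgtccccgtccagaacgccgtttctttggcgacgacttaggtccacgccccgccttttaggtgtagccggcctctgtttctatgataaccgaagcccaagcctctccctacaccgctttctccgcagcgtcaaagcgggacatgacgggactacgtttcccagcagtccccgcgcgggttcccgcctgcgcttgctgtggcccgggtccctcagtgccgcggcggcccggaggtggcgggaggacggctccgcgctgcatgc
ZNF181: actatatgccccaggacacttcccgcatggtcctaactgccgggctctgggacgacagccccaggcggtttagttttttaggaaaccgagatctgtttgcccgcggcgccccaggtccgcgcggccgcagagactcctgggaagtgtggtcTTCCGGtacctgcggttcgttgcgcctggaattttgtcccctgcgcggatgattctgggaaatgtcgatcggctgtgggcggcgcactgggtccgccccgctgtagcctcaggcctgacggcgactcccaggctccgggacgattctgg
ZNF208: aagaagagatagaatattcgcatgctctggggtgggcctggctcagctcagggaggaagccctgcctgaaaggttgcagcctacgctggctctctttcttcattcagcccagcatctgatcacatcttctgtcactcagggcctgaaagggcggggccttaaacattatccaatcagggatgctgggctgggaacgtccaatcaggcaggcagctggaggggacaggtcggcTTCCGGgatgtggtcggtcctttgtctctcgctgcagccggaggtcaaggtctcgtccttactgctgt
ZNF837 had no such core in its window, while ZNF653, ZNF181 and ZNF208 had 1 each. The ZNF837 window held 33 CG dinucleotides, the ZNF181 window 28, the ZNF653 window 20 and the ZNF208 window 10. The core was thus present with and without peaks in these 4 promoters. The CG counts of these examples do not stand for all members. In the gene cluster of ZNF208, cluster 4 below, promoters of genes with and without peaks both had a median of 10 CG dinucleotides.

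Peaks at these genes lay mostly at promoters, which the authors' annotation places within 998 bp of a start site. In the BRG1 list 173 of 206 member peaks were promoter peaks, a share of 84.0% (exact Clopper-Pearson 95% interval 78.2 to 88.7), against 37.3% of all BRG1 peaks. The share was 56.3% (54.1 to 58.4) for the other peaks of chromosome 19 and 60.1% (55.0 to 65.0) for peaks at ZNF genes of other chromosomes, and neither interval met that of the members. In the BRM list 138 of 146 member peaks were promoter peaks, or 94.5% (89.5 to 97.6), against 62.8% of all BRM peaks, 67.1% elsewhere on the chromosome and 80.2% at ZNF genes elsewhere. All 39 SNF5 member peaks were promoter peaks (interval 91.0 to 100%), against 81.3% of all SNF5 peaks. Asked instead to cover a RefSeq start of the gene named, 13 of 37 SNF5 peaks did so, or 35.1% (20.2 to 52.5), 57.1% (49.4 to 64.5) of BRG1 peaks and 64.4% (55.6 to 72.5) of BRM peaks, against 28.8, 26.0 and 41.7% of the whole lists. Such intervals cover counting error only, and with 1 list per subunit there is no spread between replicates and no test.

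Wide peaks were rare among the members. BRG1 promoter peaks of members had a median width of 668 bp (interval of the median 611 to 760), against 765 bp (735 to 798) elsewhere on chromosome 19, 911 bp (787 to 991) at ZNF genes of other chromosomes and 876 bp in the whole list. The members' interval met that of the chromosome and not that of ZNF genes elsewhere. Member widths ran from 331 to 2374 bp, and 1 of 206 reached 2000 bp, a share of 0.485% (0.0123 to 2.67) against 4.35% (3.51 to 5.32) elsewhere on the chromosome. BRM promoter peaks of members had a median of 540 bp (491 to 591), against 664.5 bp (619 to 787) at ZNF genes elsewhere. The BRM median elsewhere on the chromosome was 569 bp (544 to 604), and that interval met the members'. SNF5 member peaks had a median of 213 bp (186 to 253) and the whole SNF5 list 212 bp. The clearest gap was thus in the share of BRG1 peaks of 2000 bp or more.

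**Figure D1:**
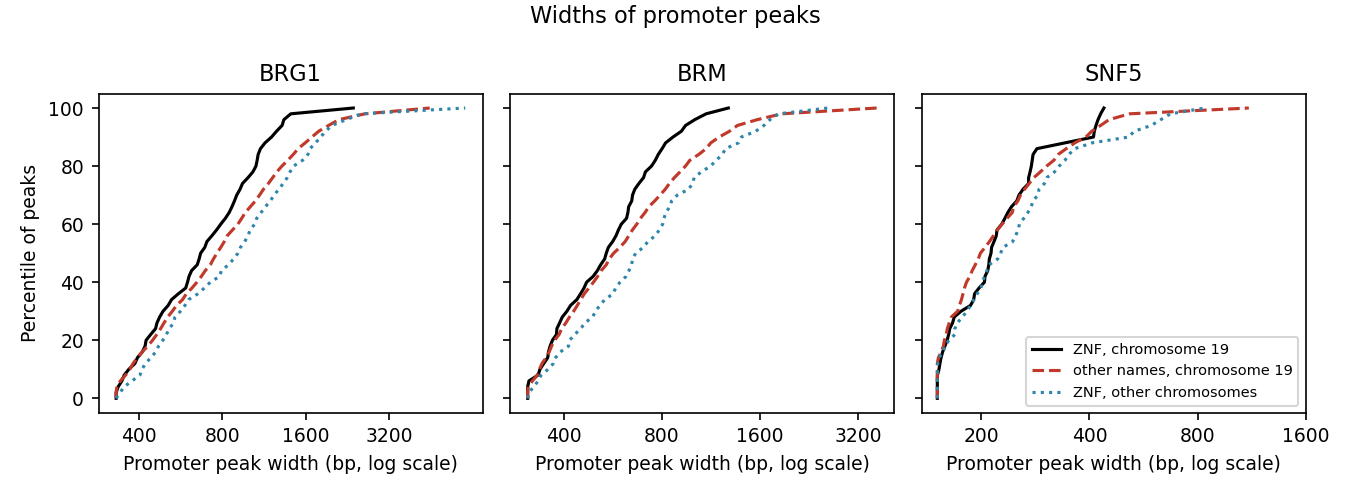
Width of promoter peaks (bp, log scale) against percentile for each list; the black line is the ZNF genes of chromosome 19, the dashed red line the other peaks of that chromosome and the dotted blue line ZNF genes of other chromosomes. The black BRG1 and BRM lines end at 2374 and 1278 bp, short of the other lines, while the black and red SNF5 lines run close together over most of their length.

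The 10 widest BRG1 peaks of the members named ZNF888, ZNF296, ZNF833P, ZNF653, ZNF571, ZNF580, ZNF544, ZNF787, ZNF507 and ZNF565. The ZNF888 peak (chr19:52922698-52925071) was 2374 bp wide and met peaks of BRM, 504 bp wide, and of SNF5, 413 bp wide. The ZNF653 peak (chr19:11504848-11506327) was 1480 bp wide and spanned a BRM peak 539 bp wide and a pair of SNF5 peaks, 210 and 439 bp wide. The ZNF833P peak was 1599 bp wide and distal, 11958 bp from the start of that pseudogene. In the BRM list the widest member peaks were those of ZNF580 at 1278 bp, ZNF274 at 1185 bp, ZNF565 at 1106 bp and ZNF701 at 1088 bp. ZNF274 encodes a zinc finger protein that brings SETDB1 to the 3′ ends of other zinc finger genes, and it had no SNF5 peak.

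Over all types, BRG1 member peaks met the other lists more often than the BRG1 peaks of the whole list did. Of the 206 BRG1 member peaks, 122 met a BRM peak by at least 1 bp, or 59.2% (52.2 to 66.0), against 35.7% of all BRG1 peaks. Among promoter peaks alone the share was 66.5% (58.9 to 73.5), against 68.8% elsewhere on the chromosome, 65.7% at ZNF genes of other chromosomes and 61.6% in the whole list. Of BRG1 member peaks 31 met a SNF5 peak, or 15.0% (10.5 to 20.7) against 9.58% of the whole list. Among promoter peaks that share was 17.9% (12.5 to 24.5), against 233 of 1165 peaks elsewhere on the chromosome and 29.2% (23.4 to 35.5) at ZNF genes elsewhere. Compared among promoters alone, the members' intervals thus overlapped those of the other parts. For SNF5 at ZNF genes elsewhere they met only at their ends, from 23.4 to 24.5%. The part of the larger promoter share in the higher sharing over all types was not tested.

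Seen from the smaller lists, 131 of 146 BRM member peaks met BRG1, or 89.7% (83.6 to 94.1) against 92.2% of the list, and 33 met SNF5, or 22.6% against 21.9%. For SNF5, 37 of 39 member peaks met BRG1, or 94.9% against 96.1%, and 35 met BRM, or 89.7% against 91.9%. The SNF5 peak that met neither ATPase was a second peak of ZNF579 (chr19:55580067-55580217), which was 151 bp wide. Over all types these shares lay close to those of the whole lists. Among promoter peaks alone, 89.9% (83.6 to 94.3) of BRM member peaks met BRG1, against 94.8% (94.5 to 95.2) of the list and 97.6% (93.9 to 99.3) at ZNF genes of other chromosomes. The members' interval did not meet that of the list. Elsewhere on chromosome 19 it was 92.5% (90.6 to 94.1).

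The width of a BRG1 peak differed with what it met. The 29 BRG1 member peaks on both BRM and SNF5 had a median width of 830 bp, the 93 on BRM alone 864 bp and the 82 on neither 467.5 bp. Elsewhere on chromosome 19 the peaks on both had a median of 1314 bp and at ZNF genes of other chromosomes 1416 bp. The step in width from BRM alone to both, seen elsewhere on the chromosome as 842 to 1314 bp, was not seen in the members' medians. The 29 member peaks on both ran from 394 to 2374 bp. These medians have no interval here, and the step was not tested. Merged over the lists with overlapping peaks of any name, the member peaks lay in 228 sites, of which 82 held BRG1 alone, 94 BRG1 and BRM, 34 all 3 subunits, 14 BRM alone, 1 BRM and SNF5, 2 BRG1 and SNF5 and 1 SNF5 alone.

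Counted by gene, the members were near the level of other genes. BRG1 peaks named 147 of 246 protein-coding members, or 59.8% (53.3 to 65.9), against 63.5% of 20037 protein-coding genes. BRM peaks named 126, or 51.2% (44.8 to 57.6) against 49.6%, and SNF5 peaks named 35, or 14.2% (10.1 to 19.2) against 19.7%. ZNF genes of other chromosomes stood at 68.1% for BRG1, 54.8% for BRM and 25.9% (20.7 to 31.6) for SNF5, and the SNF5 interval did not meet the members'. By pattern, 79 genes were named by BRG1 and BRM, 28 by all 3 lists, 39 by BRG1 alone, 14 by BRM alone, 5 by BRM and SNF5, 1 by SNF5 alone, 1 by BRG1 and SNF5, and 79 by none. Of the pseudogenes, 3 of 17 were named, ZNF833P, ZNF321P and ZNF702P. Most named genes had a single peak: 117 had 1 BRG1 peak, 16 had 2, 9 had 3, and ZNF846 and ZNF580 had 4.

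A name shows only the nearest start, and neighbours compete for it. Of the 20 genes named by BRM or SNF5 and not by BRG1, 10 had their peak on a BRG1 peak that carried another name. At ZNF460, a BRM peak 1020 bp wide and a pair of SNF5 peaks lay on a BRG1 peak named for AC005261.1, and ZNF561 had a BRM peak of 812 bp on a BRG1 peak named for its antisense gene ZNF561-AS1. ZNF17, with a BRM peak of 607 bp, and ZNF677, with 565 bp, were among the 10 on no BRG1 peak. Counted by position instead, 151 of the 216 members with a RefSeq start in the promoter table had a BRG1 peak of any name within 1000 bp, or 69.9% (63.3 to 75.9), against 65.1% of 15843 genes. For BRM it was 131, or 60.6% (53.8 to 67.2) against 54.3%, and for SNF5 38, or 17.6% (12.8 to 23.3) against 22.1%. By position, ZNF genes of other chromosomes had SNF5 near 27.1% (21.3 to 33.6), an interval that met the members', unlike the count by name. Among the unnamed members, 67 had a start in the table and 13 of them had a peak within 1000 bp under another symbol, such as ZNF146 at a peak named for ZNF565. For ZNF875 that symbol was HKR1, an older name of the same gene.

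Along the chromosome, 235 of the 246 genes fell into 9 clusters of at least 5 genes, with gaps of over 1 Mb between starts, and 11 were scattered. Clusters 1 to 4 lay on the short arm and the others on the long arm. Cluster 3, from ZNF653 to ZNF791 (11.48 to 12.63 Mb), was the most fully occupied of the clusters with more than 5 genes: BRG1 and BRM each named 19 of its 25 genes, or 76.0% (54.9 to 90.6), and SNF5 named 8, or 32.0%. Cluster 4, from ZNF101 to ZNF254 (19.67 to 24.13 Mb), had 17 of 37 genes named by BRG1, or 45.9%, 13 by BRM, or 35.1%, and 4 by SNF5, or 10.8%. Cluster 6, from ZNF565 to ZNF573 (36.18 to 37.78 Mb), had 10 of 26 genes named by BRG1, or 38.5%, 8 by BRM, or 30.8%, and 2 by SNF5, or 7.69%. For BRM, the interval of cluster 3 did not meet those of clusters 4 and 6, while for BRG1 and SNF5 the intervals met. For BRG1 and BRM, the clusters compared were the highest and lowest of those with more than 5 genes.

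**Figure D2:**
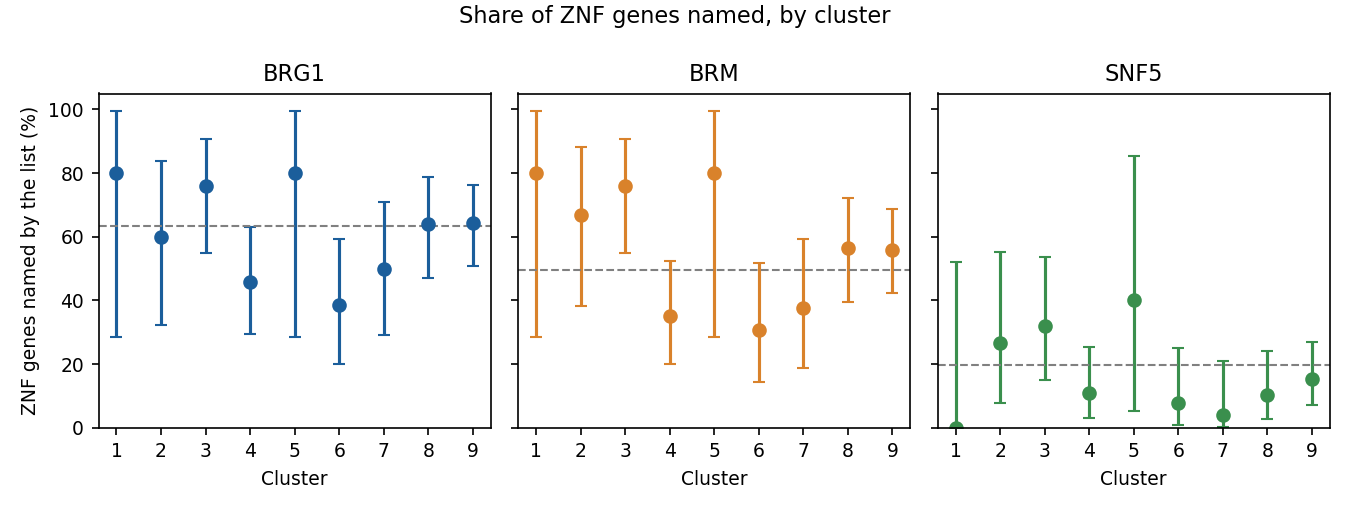
Share of the ZNF genes of each cluster named by the BRG1, BRM and SNF5 lists (%), with exact 95% intervals; the dashed line is the share of all protein-coding genes, 63.5, 49.6 and 19.7%. Cluster 3 stands at 76.0% for BRG1 and BRM, and cluster 6 at 38.5 and 30.8%.

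Clusters 1 and 5 were as fully named as cluster 3 but hold 5 genes each, and clusters 2, 7, 8 and 9 lay between clusters 3 and 6 for BRG1 and BRM. Cluster 1, from ZNF554 to ZNF77 at 2.82 to 2.94 Mb, had 4 of 5 genes named by BRG1 and by BRM and none by SNF5; the gene without a peak was ZNF556. Cluster 2, from ZNF557 to ZNF846, had 9 of 15 named by BRG1, 10 by BRM and 4 by SNF5, and its widest BRG1 and BRM peaks were at ZNF562. Cluster 5, from ZNF302 to ZNF792, had 4 of 5 named by BRG1 and by BRM and 2 by SNF5, which were ZNF181 and ZNF302. Cluster 7, from ZNF575 to ZNF296, had 12 of 24 named by BRG1, 9 by BRM and 1, ZNF180, by SNF5, which at 4.17% was the lowest SNF5 share of the clusters with more than 5 genes. Cluster 8, from ZNF175 to ZNF331, had 25 of 39 named by BRG1, 22 by BRM and 4 by SNF5, and held the widest BRG1 peak of all members, at ZNF888. Cluster 9, from ZNF628 to ZNF446 at 55.48 to 58.49 Mb, was the largest, with 38 of 59 named by BRG1, 33 by BRM and 9 by SNF5. Of the 11 scattered genes 9 were named by BRG1 and 4 by BRM, and 3 of their 16 BRG1 peaks met BRM.

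Counted by position, cluster 3 stayed high and clusters 4, 6 and 7 had the lowest BRG1 shares. The intervals of clusters 4, 6 and 7 included 65.1%, the BRG1 share of all genes. In cluster 3, 23 of 24 starts had a BRG1 peak within 1000 bp, or 95.8% (78.9 to 99.9), and 22 a BRM peak. In cluster 4 it was 15 of 29 starts, or 51.7% (32.5 to 70.6), and 12 for BRM. Cluster 7 had 10 of 20 starts, and cluster 6 had 15 of 25, or 60.0% (38.7 to 78.9). In cluster 6 lay 6 of the 7 head-to-head pairs of ZNF genes whose starts are within 1000 bp of each other. ZNF565 and ZNF146, with starts 22 bp apart, shared a BRG1 peak of 1334 bp and a BRM peak of 1106 bp that covered both starts, and both peaks carried the name ZNF565. ZNF829 and ZNF568, with starts 41 bp apart, had no peak over either start in any list.

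Within clusters, some genes with and without peaks stood in runs. Whether such runs are longer than the shares of named genes would give was not tested. In cluster 4, the 11 consecutive genes from ZNF208 to ZNF724 (chr19:21939815-23250394) held no peak of any list over 1.31 Mb. A second run in that cluster, the 7 genes from ZNF253 to ZNF626 (chr19:19865830-20661571), held none over 0.8 Mb. It includes ZNF93, which encodes a repressor of LINE-1 elements. On the far side of the longer run, ZNF91, whose protein represses SVA elements, had a BRG1 promoter peak of 1318 bp, together with BRM at 418 bp and SNF5 at 192 bp. ZNF430, between both runs, had a BRG1 promoter peak of 928 bp, together with BRM at 694 bp and SNF5 at 271 bp. Shorter stretches of 4 genes with no peak ran from ZNF880 to ZNF578 in cluster 8 and from ZNF582 to ZNF471 in cluster 9. How the authors treated reads that map to several near-identical copies is not given in the sources used here, and the part of this in the empty runs was not tested.

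The longest run of genes each named by both BRG1 and BRM was in cluster 3. It held the 10 consecutive genes from ZNF433 to ZNF799, 3 of them also named by SNF5. Genes named by only 1 of these ATPases end such a run, as ZNF443, named by BRG1 alone, did after ZNF799. In cluster 9 such runs were 8 genes from ZNF628 to ZNF787, 2 of them with SNF5, and 6 genes from ZNF837 to ZNF446 at the end of the long arm, 3 of them with SNF5. In cluster 8 such a run was 5 genes from ZNF808 to ZNF600, which include ZNF83.

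**Figure D3:**
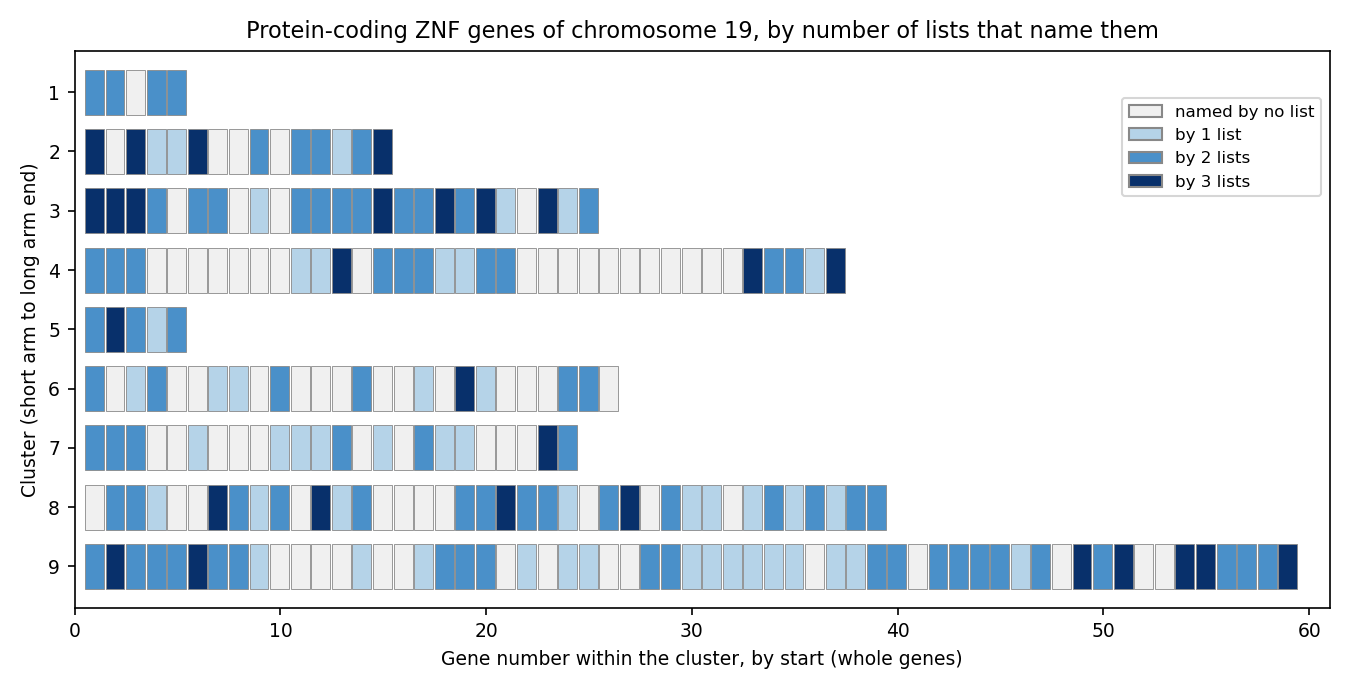
Each box is a protein-coding ZNF gene in the order of gene starts (horizontal axis, gene number within the cluster), with a row for each of the 9 clusters and shading by the number of lists that name the gene. The pale stretches of 7 and 11 boxes in cluster 4 are the runs without any peak, and the filled stretch of 10 boxes in cluster 3 is the longest run named by both BRG1 and BRM.

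Pooled over the clusters, peaks of any name were also sparser than in the surroundings. Over 16.9 Mb of cluster, the BRG1 list had 23.7 peaks per Mb, BRM 15.3 and SNF5 3.84, against 45.1, 30.4 and 8.02 over the remaining 41.6 Mb spanned by genes of the chromosome. Cluster 4 was the lowest, with 7.62 BRG1 peaks per Mb, 4.71 BRM peaks and 0.896 SNF5 peaks, apart from cluster 1, which had no SNF5 peak. Some clusters lay above the rest of the chromosome: the short cluster 1 had 56.0 BRG1 and 48.0 BRM peaks per Mb, and clusters 3 and 5 had 11.3 and 10.4 SNF5 peaks per Mb. Other protein-coding genes inside the clusters were named by BRG1 in 70 of 152 cases and by BRM in 54, against 684 and 580 of 1053 outside, and this difference was not tested.

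Promoter peaks sat on the transcribed side of the start. Of the 143 BRG1 promoter peaks with their middle within 1000 bp of a RefSeq start of the gene, 114 were downstream, or 79.7% (72.2 to 86.0), against 64.8% (61.0 to 68.5) elsewhere on the chromosome and 67.0% in the whole list. ZNF genes of other chromosomes stood at 74.2% (66.8 to 80.8), an interval that met the members'. For BRM 95 of 123 were downstream, or 77.2% (68.8 to 84.3) against 64.6% (60.3 to 68.7), and for SNF5 27 of 36, or 75.0% (57.8 to 87.9) against 57.9% (50.1 to 65.4). The BRG1 and BRM intervals did not meet those of the rest of the chromosome, and the SNF5 interval did. The median middle lay 198 bp downstream in the BRG1 list, 160 bp in the BRM list and 102 bp in the SNF5 list. SNF5 peaks were closest to the start, with 30 of 36, or 83.3%, within 250 bp, against 66.7% for BRM and 49.7% for BRG1. The whole lists had the same order, with 66.2% for SNF5, 58.6% for BRM and 46.9% for BRG1, and medians of 70, 109 and 142 bp downstream.

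**Figure D4:**
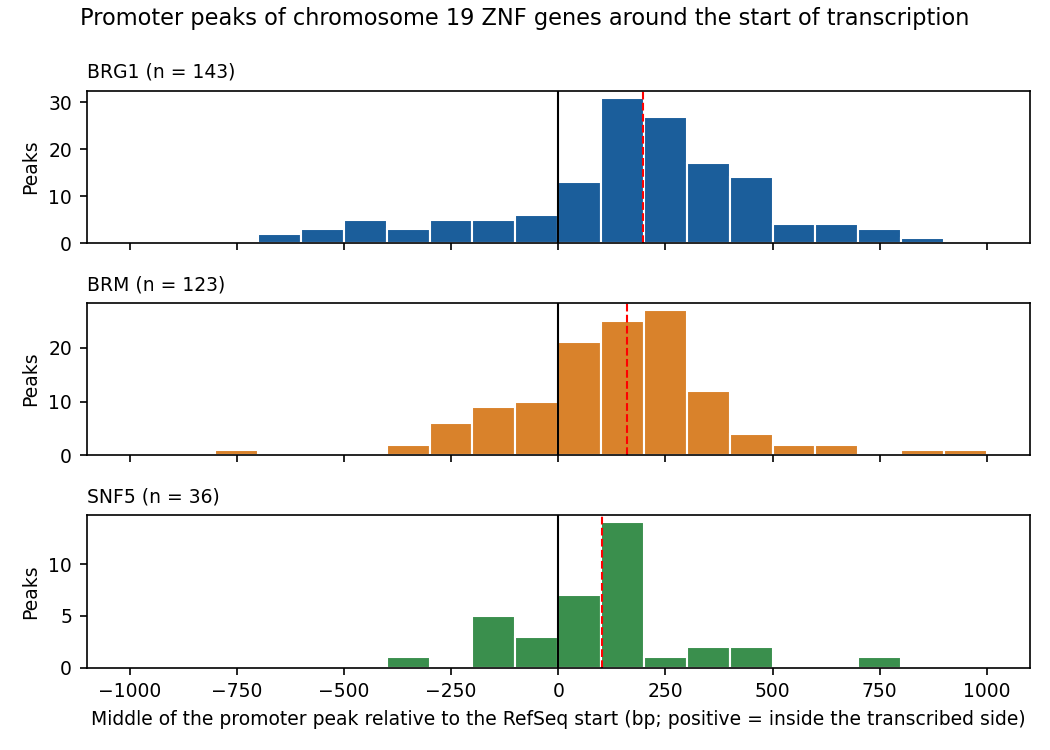
Number of promoter peaks of chromosome 19 ZNF genes by the distance of the peak's middle from the RefSeq start (bp, bins of 100), for 143 BRG1, 123 BRM and 36 SNF5 peaks; the black line is the start and the dashed red line the median. The medians lie at 198, 160 and 102 bp on the transcribed side.

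A few promoters carried several BRG1 peaks around the start. Of the 16 members with several BRG1 promoter peaks near a start, 14 had peaks on both sides of it, or 87.5% (61.7 to 98.4), against 74.4% over all genes with several. Such genes made up 12.8% (16 of 125) of the members with a promoter peak near a start, against 17.2% of all genes and 23.1% (117 of 507) elsewhere on the chromosome. In 11 of the 14 a peak also covered a start. At ZNF160 the middles of the peaks lay 270 bp before and 368 bp after the start, with 123 bp between the peaks. At ZNF44 they lay 338 bp before and 344 bp after, with 233 bp between, and at ZNF57 412 bp before and 228 bp after, with 201 bp between. The median space between such peaks was 196 bp over the 14 genes, among them ZNF83, whose peaks belong to starts that lie far apart. In the BRM list 3 of 7 genes with several promoter peaks had them on both sides. ZNF653 and ZNF579 had this form in the SNF5 list; at ZNF653 the SNF5 middles lay 30 bp before and 412 bp after the start, inside a single BRG1 peak.

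Only 33 BRG1 member peaks lay away from promoters, 24 in introns, 7 distal and 2 in exons, and 7 of them met BRM and 0 met SNF5. With 0 of 33, the exact upper bound of the share on SNF5 is 10.6%. These shares, 21.2% on BRM and 0 on SNF5, were near those of all BRG1 peaks away from promoters, 20.2 and 2.69%. The median distance of these peaks from the start was 6151 bp. ZNF83 had 7 BRG1 peaks, 3 at promoters and 4 in introns of 331 to 891 bp, with 3 BRM peaks and 1 SNF5 peak. ZNF552 was named by 6 BRG1 peaks, but 5 of them, among them an exon peak of 1227 bp (chr19:57803425-57804651), lay outside the gene itself. ZNF507 had 5 BRG1 peaks, of which its promoter peak of 1334 bp met BRM and the other 4 met neither subunit. The widest intron peak was at ZNF787 (chr19:56090809-56092160), 1352 bp wide and 11997 bp from the nearest start, and it met neither subunit.

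Members whose promoters were poor in CG dinucleotides had BRG1 and SNF5 peaks nearly as often as the other members, while over all genes the shares lay far apart; for BRM the members' shares differed more. CG content was measured as the CG dinucleotides observed in the 300-base window over those expected from its C and G, and 0.6, a limit often used to define CpG islands, was taken as the dividing value after the values were seen. For CG content and motifs, the window of its most upstream start stood for a gene, while peaks were counted near any of its starts. The window can thus lie away from the peak. That of ZNF574, with a value of 0.221, was set at 42068477, and the BRG1 peaks of the gene began from 42075016 on. Of all protein-coding genes, 29.4% of those under 0.6 and 83.8% of those at or above it had a BRG1 peak within 1000 bp of a start. Among the members it was 32 of 49, or 65.3% (50.4 to 78.3), and 119 of 167, or 71.3% (63.8 to 78.0). Elsewhere on chromosome 19 it was 28.4% (24.0 to 33.2) and 85.4% (82.2 to 88.2). By position, the members thus stood above their chromosome at low CG content and below it at high. ZNF genes of other chromosomes had 52.4% (36.4 to 68.0) and 81.4% (74.8 to 86.9), intervals that met the members'.

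Against the rest of the chromosome, BRM and SNF5 stood the same way. BRM peaks were near 24 of 49 members of low CG content, or 49.0% (34.4 to 63.7), against 22.8% (18.8 to 27.3) elsewhere on the chromosome, and near 64.1% (56.3 to 71.3) at or above the dividing value, against 75.1% (71.4 to 78.6). SNF5 peaks were near 18.4% (8.76 to 32.0) of low members against 4.06% (2.34 to 6.51), and near 17.4% (11.9 to 24.0) of the others against 30.6% (26.9 to 34.6). In none of these pairs, counted by position, did the intervals meet. Over all genes BRM stood at 20.3% and 72.2% under and above the dividing value, and SNF5 at 5.92% and 30.6%. ZNF genes of other chromosomes had BRM near 35.7% (21.6 to 52.0) and SNF5 near 26.2% (13.9 to 42.0) of low promoters, and 67.4% (59.9 to 74.4) and 27.3% (20.8 to 34.6) of the others, intervals that met the members'. Of the 49 low promoters 25 were in cluster 4 and 11 in cluster 3. Without cluster 3 the low-CG shares were 57.9% (40.8 to 73.7) for BRG1, 39.5% (24.0 to 56.6) for BRM and 15.8% (6.02 to 31.3) for SNF5, and the last 2 intervals then met those of the rest of the chromosome. Without cluster 4 they were 75.0, 58.3 and 25.0%. Counted by name, low members stood at 57.1% (42.2 to 71.2) for BRG1, against 42.9% (37.9 to 47.9) elsewhere on the chromosome. BRM named 46.9% (32.5 to 61.7) against 31.7% (27.2 to 36.6), and SNF5 16.3% (7.32 to 29.7) against 7.11% (4.77 to 10.1). In each list these intervals met, so the separation at low CG content depended on the count used. At or above the dividing value, the intervals by name did not meet in any list.

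Between clusters, the order of CG content was not that of the shares named. The median was 0.438 in cluster 4, 0.609 in cluster 3 and between 0.750 and 0.869 in the others. Cluster 3, the most occupied of the large clusters, was thus second lowest in CG content, and cluster 6, with 14 of 26 genes named by none, had 0.782. Within cluster 4, promoters of named genes had a median of 0.460 and those of unnamed genes 0.419, and in cluster 6 the medians were 0.749 and 0.801. Named genes had the higher median also in cluster 7, at 0.846 against 0.653, cluster 3, at 0.613 against 0.365, cluster 2, at 0.752 against 0.610, and cluster 1, at 0.858 against 0.310, the last 3 with at most 3 unnamed promoters each. In cluster 8 the medians were 0.842 and 0.854 and in cluster 9 0.832 and 0.825. Cluster 5 had no unnamed promoter.

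**Figure D5:**
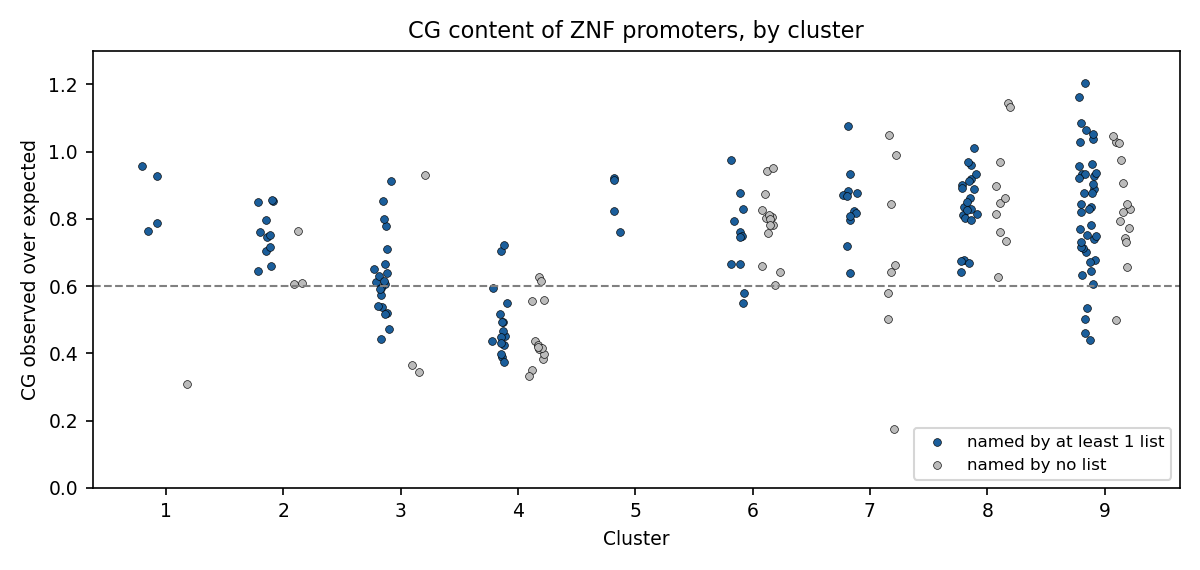
CG observed over expected in the promoter window of each ZNF gene, by cluster; blue points are genes named by at least 1 list, grey points genes named by none, and the dashed line is 0.6. Named and unnamed genes of cluster 4 overlap at medians of 0.460 and 0.419.

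The ETS core marked in the printed promoters was frequent across the members. CCGGAA was searched on both strands, where it can share its last bases with AAGATGG and its first with the reverse complement of GGGCGG, and each match was counted. It was present in 120 of 216 member promoters, or 55.6% (48.7 to 62.3), against 21.8% (19.2 to 24.5) elsewhere on chromosome 19, 44.4% (37.6 to 51.3) at ZNF genes of other chromosomes and 22.7% of all 15843 promoters. It was found in 61.1% (52.8 to 68.9) of named and 43.3% (31.2 to 56.0) of unnamed members, and in 24 of the 31 members named by BRG1 alone, or 77.4% (58.9 to 90.4). The intervals of named and unnamed members met. In cluster 9 the core was in 32 of 40 named and 5 of 14 unnamed promoters, and in cluster 4 in 14 of 16 and 9 of 13. Clusters 6 and 7 went the other way, with 3 of 11 named and 5 of 14 unnamed promoters, and 4 of 12 and 3 of 8. GGGCGG, the GC box read by SP family factors, was in 67.1% of member promoters and 58.3% of all promoters. TATAAA was in 2.31% (0.756 to 5.32) against 9.75%, and CACGTG, the E-box core, in 4.17% (1.92 to 7.76) against 8.82%. AAGATGG, the core of YY1 sites, was in 7.87% against 6.36%, and TGANTCA, the AP-1 site, in 6.48% against 5.70%. Paralogous promoters share sequence, so the members are not independent of each other.

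Genes of the corepressor pathway through which KRAB zinc finger proteins act were mostly named by BRG1 and BRM. Of 20 such genes, which include the member ZNF274, BRG1 named 18, BRM 16 and SNF5 4, against 63.5, 49.6 and 19.7% of all genes. Those named by SNF5 were ATF7IP, DAXX, CHD3 and DNMT1, a share near that of all genes. These counts are by name, so a peak near these genes that carries another name would be missed. TRIM28, which lies beyond cluster 9 on the same chromosome, had 2 BRG1 promoter peaks, the wider of 1109 bp (chr19:58545021-58546129). No BRM or SNF5 peak carried its name. SETDB1, the H3K9 methyltransferase that TRIM28 recruits, had a BRG1 peak of 946 bp and a BRM peak of 483 bp. The HP1 genes CBX1, CBX3 and CBX5 had BRG1 and BRM promoter peaks, and the HUSH complex genes MPHOSPH8 and TASOR did as well. PPHLN1 had a BRG1 peak of 2445 bp and was not named by BRM. MORC2 and ATRX were named by no list. Of the genes that define basal prostate epithelium, KRT5, KRT14, TP63, ITGB4, LAMB3 and COL17A1, BRG1 named 6 of 6, BRM 5 and SNF5 2, and of the hepatocyte genes ALB, APOA1 and TTR none was named. Of blood genes, BRG1 named PTPRC and CD3E, with an intron peak of 345 bp and a distal peak of 383 bp, and BRM and SNF5 named neither. Of the stroma genes COL1A1 was named by all 3 lists, and COL3A1 and DCN by none.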

How the data were processed

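The 24 samples fall into 12 groups of 2. The peak lists of the 3 subunits in SCHLAP1 cells were used, 1 list each; whether replicates were pooled, and the roles of Bowtie2, SAMtools, MACS2 and deepTools 2.5.2, which the submitters' processing notes name with hg38, remain not given in the sources used here. Deposited columns used were peak position, width and distance to the nearest TSS in bp, with type and gene name, as annotated by the authors per the file headers. No score, read count or p-value came with them, so depth is unknown. The members and lists were chosen with earlier results of these data known.

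Peaks were joined by symbol to RefSeq genes and promoters (GRCh38.p14, the same build as hg38); 216 of 246 members had a promoter, and other genes were matched by older symbols too. Overlaps (1 bp or more) were computed in Python 3.11.15 with pandas 2.3.3 and checked with bedtools 2.31.1; exact intervals came from scipy 1.17.1. Overlap, interval and motif functions were tested on simulated data. Clusters were split at gaps of over 1 Mb. Genes named were those with the widest peaks in all, by cluster and by type, those with all 3 lists, those with the most peaks, the first unnamed ones by alphabet, those with BRM or SNF5 and not BRG1, and the corepressor genes; ZNF91, ZNF93, genes at the ends of runs and clusters, head-to-head pairs and genes with paired peaks were added after their values were seen. Zinc finger and KRAB counts in the proteins were planned and not run, since protein sequences were not used here. Alternatives varied the overlap, peak set, promoter definition, gene count and cluster gap.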

Additional observations from a re-analysis of the deposited data

How the results depend on the processing

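Of 56 alternatives, 36 left a value within its interval, or a count within 1.5 times, and 20 moved it. Counting peaks within 1 kb of each other raised BRG1 peaks on BRM to 69.9% and SNF5 peaks on BRM to 97.4%. With peaks at least as wide as the median of their list, BRG1 on BRM was 46.9%, BRM on BRG1 76.8%, SNF5 on BRG1 80.0%, SNF5 on BRM 65.0%, and the BRG1 promoter share 88.8%. With the widest peaks in equal numbers, 3 BRG1 and 22 BRM member peaks were left: BRG1 on BRM and on SNF5 was 33.3%, BRM on BRG1 9.09%, SNF5 on BRG1 10.3%, SNF5 on BRM 15.4%, and the share of genes named 0.813% for BRG1 and 8.54% for BRM. A promoter limit of 3000 bp gave 89.8% for BRG1. Requiring a peak to cover a RefSeq start gave 57.1% for BRG1, 64.4% for BRM and 35.1% for SNF5. A peak of any name within 1 kb of a start gave 69.9% of genes for BRG1 and 60.6% for BRM. Older symbols, an alternative added after seeing the data, gave 60.2% of genes for BRG1, 51.6% for BRM and 14.6% for SNF5. Cluster gaps of 0.5 and 2 Mb gave 10 and 6 clusters in place of 9. No paired analysis was possible because each subunit has 1 list without replicate numbers; leaving out a replicate was not possible for that reason. Depth sets how many peaks a list holds, and its part in the differences between lists was not tested.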
